A study of Mus musculus with 2 samples.

Results

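The Mir506-family germ-cell cluster is a run of miRNA hairpins on the mouse X chromosome. Its 10 members here were taken by name from a table of 1638 miRNA features: Mir470, mmu-mir-743b.1, Mir881, Mir878, Mir463, Mir741, Mir883b, Mir883a, mmu-mir-871.1 and Mir743, in the order in which they lie along the minus strand. They were chosen because their levels in prospermatogonia and their differences from mESCs were already known from these libraries. Levels and differences of the members are therefore descriptions, with no test. The table gives smRNA-seq values of mESCs and of male prospermatogonia at E15.5, with 1 library each, so no difference has a replicate check. The mESCs were of the wild-type E14 line, a line of mouse embryonic stem cells. The paper describes growth of naive mESCs without feeder cells in medium with LIF and inhibitors of MEK and GSK3. It lists the mESCs of this library without the word naive, so their medium is not certain. The prospermatogonia, labelled primordial germ cells and wild-type on the C57Bl/6J background, are the germ cells of the fetal testis. They were collected from matings of females with an Oct-4/GFP transgene that is active in the developing gonad. The number of embryos behind the library is not given in the sources used here.

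A miRNA gene is transcribed as a precursor with a hairpin, from which the enzymes Drosha and Dicer cut an arm from each side of the stem. The arms are called 5p and 3p, and bases 2 to 8 of an arm, the seed, direct pairing with target mRNAs. Hairpins that lie close together on a strand are often cut from a shared primary transcript. The Mir506 family is an X-linked miRNA family that changes fast in evolution and is known in mammals for expression in the testis and male germ cells. No target of these miRNAs was measured here.

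Values in the table are log2 levels per hairpin, and the arms are not separated. After the log was undone, every value of a library above its lowest was, within 0.0165 reads, a whole multiple of the same small number, the value of 1 read, and the reads were recovered from it. A level in RPM is the number of reads scaled to a library of 1000000. The library totals implied by this reading were 449643 reads for mESCs and 2869578 for prospermatogonia, and 110455 and 155237 of them lay on miRNA features. A count of 0 allows for up to 3 reads, and 3 reads correspond to 6.67 RPM in mESCs but to 1.05 RPM in prospermatogonia, owing to the deeper library. Intervals are 95% Wilson intervals of the reads and cover counting error only, because reads copied by PCR are not independent molecules.

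On GRCm38 the members span 37.3 kb of the minus strand of the X chromosome, between 66776757 and 66814025. Each has exactly the position of a GENCODE miRNA gene, and no other annotated gene overlaps any of the 10. The nearest protein-coding genes beyond the stretch are Slitrk2, 115 kb away on the downstream side of the cluster, and Gm1140, 844 kb away on the other. For 8 members the name in the table is that of GENCODE. The other two are crossed: mmu-mir-743b.1, from 66810428 to 66810504, has the position of Mir871, and mmu-mir-871.1, from 66777256 to 66777332, has that of Mir743b. The table's positions were taken as what was counted, but it holds nothing that shows whether reads were assigned by position or by name. The hairpins at these positions are printed first, since the member with the most reads carries the sequence of Mir871 if position decides and that of Mir743b if the name does. They are shown 5′ to 3′ as RefSeq gives them for GRCm38.p6, with both mature arms in capitals, and Mir470, the second highest member, follows.
mmu-mir-743b.1 (RefSeq Mir871): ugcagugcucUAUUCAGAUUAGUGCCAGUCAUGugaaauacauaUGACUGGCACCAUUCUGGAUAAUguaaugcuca
mmu-mir-871.1 (RefSeq Mir743b): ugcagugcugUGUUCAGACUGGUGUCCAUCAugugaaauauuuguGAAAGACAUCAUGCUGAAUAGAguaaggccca
Mir470: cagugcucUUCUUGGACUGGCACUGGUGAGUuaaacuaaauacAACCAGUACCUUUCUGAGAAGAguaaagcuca

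RefSeq holds 20 mature arms for the 10 members, between 21 and 23 nt long. They carry 17 different seeds. Only 3 seeds are found in more than 1 member, and these arms are shown to group the members, with the seed in capitals.
mmu-miR-871-5p: uAUUCAGAuuagugccagucaug
mmu-miR-743a-5p: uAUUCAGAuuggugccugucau
mmu-miR-743a-3p: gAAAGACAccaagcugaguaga
mmu-miR-743b-3p: gAAAGACAucaugcugaauaga
mmu-miR-883a-3p: uAACUGCAacagcucucaguau
mmu-miR-883b-3p: uAACUGCAacaucucucaguau
Among 1674 distinct mouse mature sequences in RefSeq, none outside these pairs has any of the 3 seeds. Counting from 1 at the 5′ end, mmu-miR-883b-3p and mmu-miR-883a-3p differ by U12G alone. The 5p arms of Mir871 and Mir743 differ over their shared length by A11G and A17U. By its position, Mir743 thus has a seed in common with the highest member on its 5p arm and with mmu-mir-871.1 on its 3p arm. Of the other 14 seeds, 13 belong to a single mature sequence of the mouse, and that of mmu-miR-743b-5p also occurs in mmu-miR-6948-5p. The remaining arms of the next highest members show that each brings a seed of its own.
mmu-miR-871-3p: uGACUGGCaccauucuggauaau
mmu-miR-470-5p: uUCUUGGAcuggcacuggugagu
mmu-miR-470-3p: aACCAGUAccuuucugagaaga
mmu-miR-881-5p: cAGAGAGAuaacagucacaucu
mmu-miR-881-3p: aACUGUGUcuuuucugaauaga
mmu-miR-463-5p: uACCUAAUuuguuguccaucau
mmu-miR-463-3p: uGAUAGACaccauauaagguag
Of the 20 arms, 14 begin with U, which is 70% against 41.0% of all mouse mature sequences. The letters ACACCA are found in the 3p arms of Mir878, Mir463 and Mir743 and in 0.538% of all mouse mature sequences. These letters were picked after the sequences had been read.

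The hairpins were then aligned with each other over their whole length. The median identity of the 45 pairs was 57.9%, from 49.4% for Mir463 and Mir883a to 79.7% for Mir883b and Mir883a. Besides that pair, only mmu-mir-743b.1 and mmu-mir-871.1 exceeded 70%, with 75.6%. No stretch longer than 17 nt is shared between a member and any other mouse hairpin in RefSeq, and none of the 20 mature arms is found in another hairpin. Among these hairpins, a full-length read of a mature arm therefore matches exactly 1 member, which is not so for the Mir465 copies that lie upstream.

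**Figure D1:**
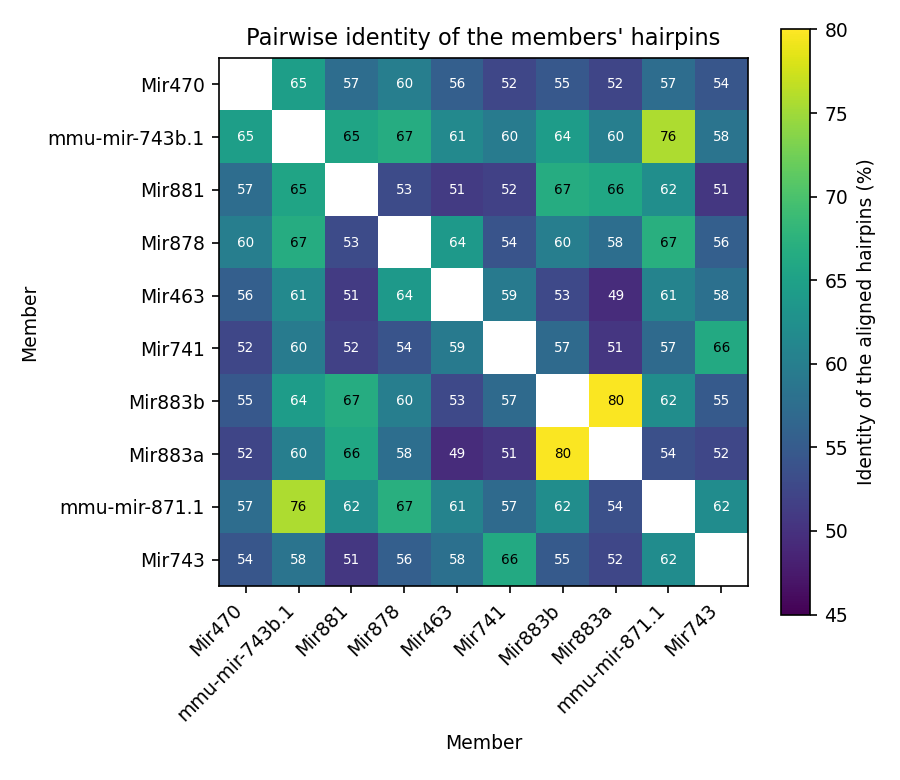
Pairwise identity (percent of alignment columns) of the hairpins of the 10 members, in their order along the minus strand. Mir883b with Mir883a and mmu-mir-743b.1 with mmu-mir-871.1 stand out at 79.7% and 75.6%, and the other pairs lie at or below 67.1%.

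In the prospermatogonia library the 10 members together held 16860 reads, 10.9% of all miRNA reads (10.7% to 11.0%). In the mESC library they held 14 reads, 0.0127% (0.00755% to 0.0213%). As levels, these are 5875 RPM (5788 to 5965) and 31.1 RPM (18.5 to 52.3). The members are thus a sizeable part of the miRNA reads of prospermatogonia and close to the lower limit of what the mESC library can show. At the prospermatogonia level, the mESC library would have held 2642 reads of them.

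Reads along the cluster were very uneven. Whether the library preparation recovered the different sequences equally is not known here, and the intervals do not cover it. The member at the position of Mir871, mmu-mir-743b.1, had 9619 reads in prospermatogonia, the third highest count of all 1638 features, and 57.1% of the members' reads (56.3% to 57.8%). This single hairpin held 6.20% of all miRNA reads. Mir470, 3446 nt upstream by the table's positions, had 3906 reads and 23.2% (22.5% to 23.8%), and ranked 7 in the library. These 2 hairpins gave 80.2% of the reads (79.6% to 80.8%), and each of the remaining 8 stayed below an even share of 10%. Mir881 had 918 reads, 5.45% of the members' reads (5.11% to 5.80%). Mir463 came close to it with 869 reads, 5.15% (4.83% to 5.50%). Mir878, which lies between them, had 551 reads and a share of 3.27% (3.01% to 3.55%). Mir741 and mmu-mir-871.1 followed side by side, with 405 reads and 2.40% for the former and 369 reads and 2.19% for the latter. Mir883a had 127 reads, 0.753% (0.634% to 0.896%). At the lower end, Mir743 had 55 reads, 0.326% (0.251% to 0.424%), and Mir883b had 41 reads, 0.243% (0.179% to 0.330%). The 4 lowest members together gave 3.51% of the reads, less than Mir881 alone. The highest member had 235 times the reads of the lowest (173 to 319). Of the 10 members, 7 ranked among the 50 highest features of the library, and Mir743 and Mir883b ranked 103 and 111. The hairpins are 62 to 78 nt long, and the order of the members was the same in reads per nt of hairpin.

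**Figure D2:**
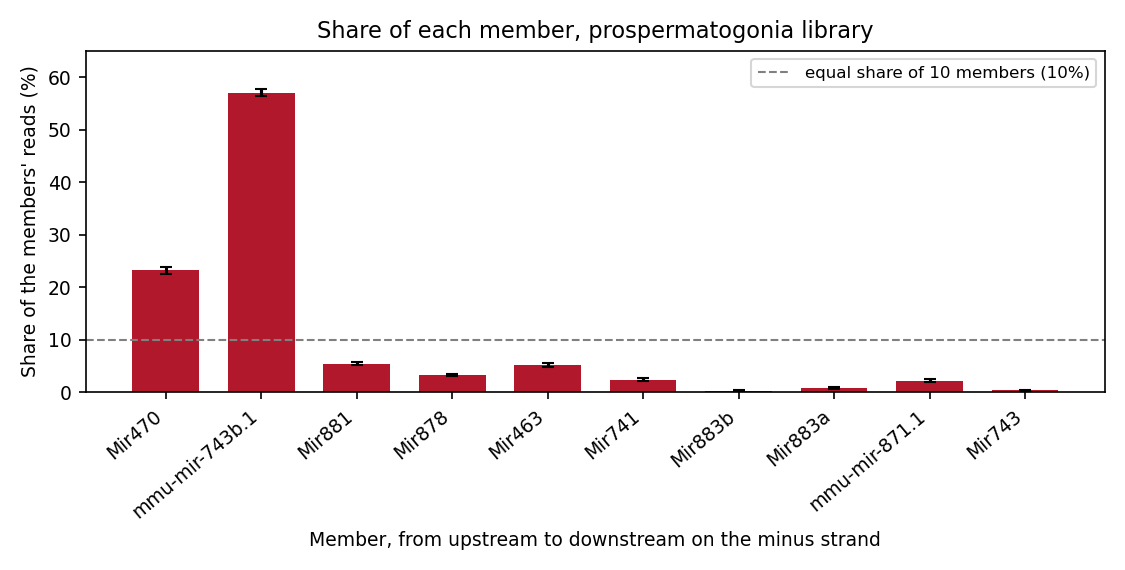
Share of each member in the 16860 reads of the members in prospermatogonia (bars, percent), with 95% Wilson intervals and a dashed line at the even share of 10%. Only mmu-mir-743b.1 (57.1%) and Mir470 (23.2%) lie above the line.

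Some neighbours in this order could not be separated by their reads. Mir881 and Mir463 differed by 1.06-fold, with an interval from 0.963 to 1.16. Mir741 and mmu-mir-871.1 differed by 1.10-fold (0.953 to 1.26), and Mir743 and Mir883b by 1.34-fold (0.898 to 2.01). The other steps of the order exceeded counting error, the smallest being Mir878 above Mir741 by 1.36-fold (1.20 to 1.55). The spread between libraries of prospermatogonia is not known here.

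The levels were next followed along the minus strand, from Mir470 at the upstream end to Mir743 at the downstream end, with the crossed features at the table's positions. All 9 pairs of adjacent members differed beyond counting error, 7 of them by at least 2-fold. From Mir470 to mmu-mir-743b.1 the reads were 2.46-fold higher (2.37 to 2.56), and over the 8406 nt to Mir881 they were 10.5-fold lower (9.79 to 11.2). If the reads belong by name instead, the hairpin next to Mir470 had 369 reads, 10.6-fold fewer than Mir470 (9.51 to 11.8), and Mir881 was 2.49-fold above it (2.21 to 2.81). Mir881, Mir878, Mir463 and Mir741 had 405 to 918 reads, and adjacent members among them differed by 1.58-fold to 2.15-fold. Mir880, which is not a member, lies between Mir878 and Mir463 with 18 reads, so that the listed hairpins of this segment were not all alike. Mir883b, 6837 nt downstream of Mir741, had 9.88-fold fewer reads (7.17 to 13.6), and the non-member Mir471 between them was already 10.7-fold below Mir741 (7.65 to 14.8). Beyond Mir883b the reads were higher again by 3.10-fold at Mir883a and by another 2.91-fold at mmu-mir-871.1, or by 75.7-fold (63.6 to 90.2) at that position if the name decides.

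Close neighbours on the strand did not always have similar reads. Mir881 and Mir878 are 358 nt apart and differed by 1.67-fold (1.50 to 1.85), whereas mmu-mir-871.1 and Mir743 are 437 nt apart and differed by 6.71-fold (5.06 to 8.90), or by 175-fold (134 to 228) by name. Mir883a is 320 nt from Mir742, a hairpin of the cluster outside the 10 members, which had 1 read against 127. Mir883b and Mir883a, whose 3p arms differ at a single base, lie 9056 nt apart, and Mir883a had 3.10-fold more reads than Mir883b (2.18 to 4.40). Mir743 shares its 5p seed with the highest member if position decides and its 3p seed if the name does, and in both cases the reads of the pair differed by 175-fold.

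Divided by order, the 5 upstream members held 94.1% of the reads and the 5 downstream members 5.91%. By name the larger part lay downstream instead, with 39.2% and 60.8%, so that the division rests on the assignment of the crossed features. Spearman's rho between position from upstream to downstream and reads was -0.89 over the 10 members and -0.38 by name, a description of points that share a library. Over the 13 listed features from Mir470 to Mir743, which add Mir880, Mir471 and Mir742, it was -0.68, and -0.35 by name. The Mir465 group upstream was left out of these values, since its copies share their sequence. With that group, over all 18 listed features of the stretch by position, rho was 0.19. That value includes the copies, whose levels are uncertain, and decides nothing about the upstream end. A fall from upstream to downstream is described for Mir470 to Mir743 only.

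**Figure D3:**
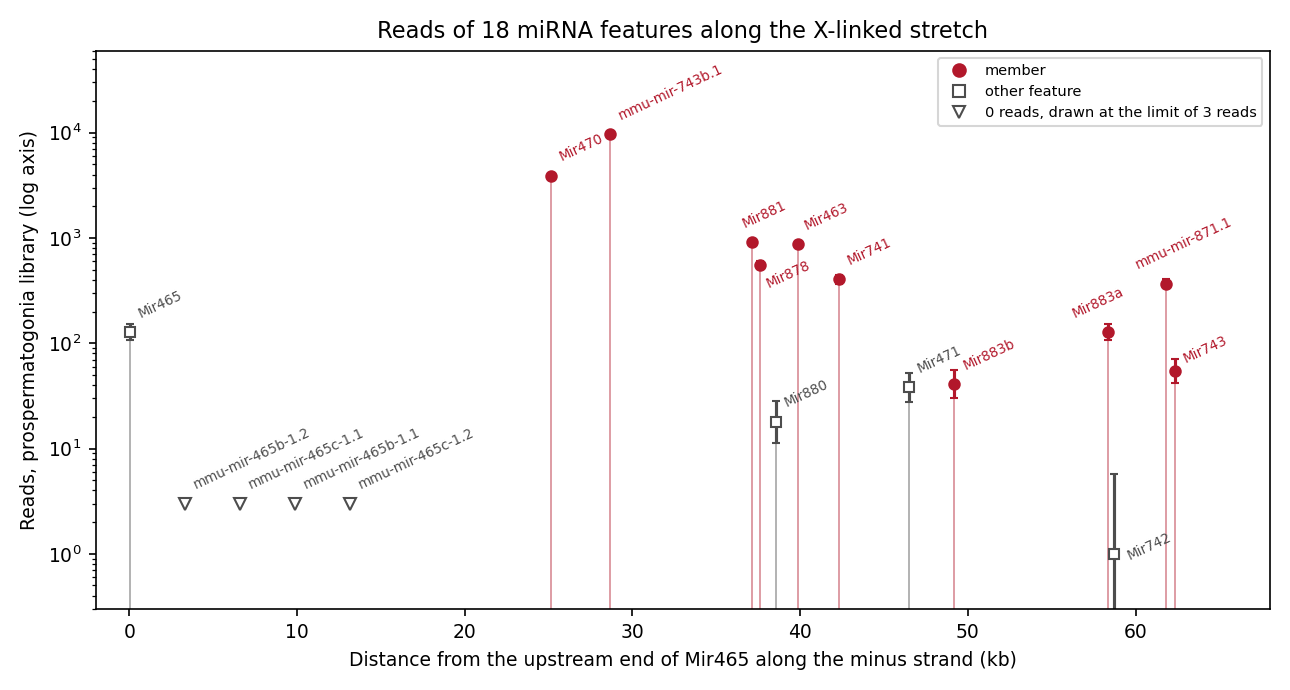
Reads in the prospermatogonia library (log axis, 95% Wilson intervals) against the distance along the minus strand from the upstream end of Mir465 (kb), for the 10 members (filled circles) and 8 other listed features (open squares and triangles). Reads peak at mmu-mir-743b.1 with 9619, placed by the table's positions, the value at Mir883b is 41, and triangles mark features with 0 reads at the limit of 3 reads.

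The 8 other features of the stretch, from 66776757 to 66839125, had 184 reads in prospermatogonia, 1.08% of the reads of the stretch, and none in mESCs. Mir465 at the upstream end had 127 reads, Mir471 had 38, Mir880 had 18 and Mir742 had 1. Mir880 lies 900 nt downstream of Mir878 and 1232 nt upstream of Mir463, and its neighbours had 30.6-fold (19.2 to 48.7) and 48.3-fold (30.4 to 76.7) more reads. The features mmu-mir-465b-1.2, mmu-mir-465c-1.1, mmu-mir-465b-1.1 and mmu-mir-465c-1.2 had 0 reads in both libraries. Each of these hairpins is identical over its whole length to another of the 4, and their 3p arm is also found in Mir465, so that the levels of all 5 are uncertain. The members were picked by name, and Mir465 had as many reads as Mir883a, while Mir471 and Mir883b could not be separated (1.08-fold, 0.696 to 1.67). Mir201 and Mir547, X-linked miRNA features 1149 kb from the stretch, had 1 and 2 reads in prospermatogonia and none in mESCs, below the limit of 3 reads.

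The stability of the predicted fold was compared with the reads, since the hairpins differ in both. The minimum free energy computed from the sequence ran from -39.9 kcal/mol for mmu-mir-743b.1, with the sequence at its position, to -20.0 kcal/mol for Mir463, with a median of -28.9. Mir883a had an energy of -39.3 kcal/mol and 127 reads, and Mir463 had the weakest fold and 869 reads. Spearman's rho between energy and reads was -0.16 over the 10 members, and between GC content, which ran from 32.1% to 46.2%, and reads it was 0.0061. With the crossed reads assigned by name the rho values were 0.20 and 0.15. Neither property ordered the members under either assignment.

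For each hairpin, 1 RPM was added to both levels and the log2 ratio of prospermatogonia over mESC was taken. This pulls the ratio of features with few reads towards no change. For members with 0 reads in mESCs, however, it gives more than the limit of 3 reads allows to be shown. Mir463, for example, is 304-fold higher on this scale but at least 45.4-fold against that limit. In mESCs, 6 members had 0 reads, and only mmu-mir-743b.1 with 7 reads (15.6 RPM) and Mir470 with 4 reads (8.90 RPM) exceeded 3 reads. The level of mmu-mir-743b.1 in prospermatogonia was 3352 RPM (3286 to 3420), a log2 ratio of 7.66 and a read ratio of 215 (104 to 445). Mir470 had 1361 RPM, a log2 ratio of 7.11 and a read ratio of 153 (59.5 to 394). For both, the intervals of the libraries were far apart. Mir881 had 2 reads in mESCs and 320 RPM in prospermatogonia, a read ratio of 71.9 (19.7 to 263). Mir878 had 1 read in mESCs and 192 RPM in prospermatogonia, a read ratio of 86.3 (15.2 to 490).

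Members without a read in mESCs were set against the limit of 3 reads in that library, with the level in prospermatogonia taken without its counting error. On this scale Mir463, with 303 RPM in prospermatogonia, was at least 45.4-fold higher. Mir741 with 141 RPM was at least 21.2-fold higher and mmu-mir-871.1 with 129 RPM at least 19.3-fold. Mir883a with 44.3 RPM was at least 6.63-fold higher, Mir743 with 19.2 RPM at least 2.87-fold and Mir883b with 14.3 RPM at least 2.14-fold. With the low end of the interval in prospermatogonia these last values were 5.58 for Mir883a, 2.21 for Mir743 and 1.58 for Mir883b. The bounds thus follow the level in prospermatogonia and say little about the order of the differences. For Mir743 and Mir883b the depth of the mESC library allows no more than a difference of a few fold to be shown.

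**Figure D4:**
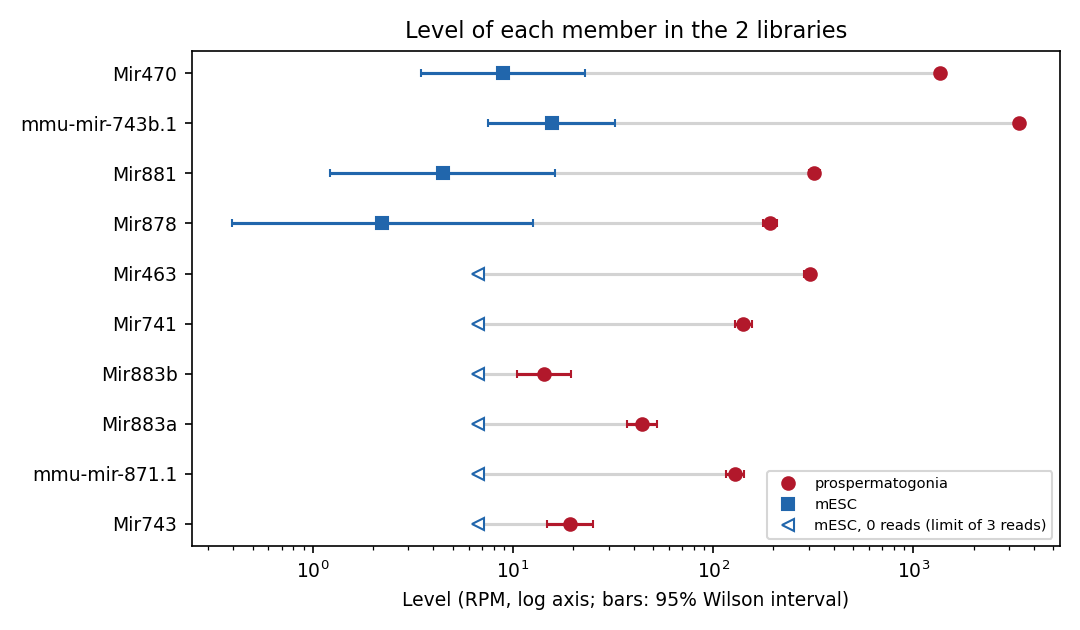
Level of each member (RPM, log axis) in prospermatogonia (circles) and mESCs (squares), with 95% Wilson intervals. Open triangles mark the 6 members with 0 reads in mESCs at the limit of 3 reads, 6.67 RPM, and in all 10 the prospermatogonia level lies to the right.

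All 10 members had 10 RPM or more in a library and were at least 2-fold higher in prospermatogonia, while 9.85% of the 203 features with such a level were (20 features) and 80.8% were at least 2-fold lower. The members themselves are among these features, here and in the shares that follow. When the interval of the read ratio had to pass 2-fold, 9 members remained, without Mir883b, and 5.91% of the features. Of the 354 features with a read in either library, 11.3% were higher. Scaled to all miRNA reads the split was 28.4% higher and 35.4% lower, and scaled to the median ratio of the features it was 31.8% each way, with all 10 members at least 2-fold higher in both. The members were chosen for this difference, 9 of them passed the minimum through prospermatogonia alone, and nothing is read from the count. Their median log2 ratio was 6.46, and 4.95 with members at 0 reads in mESCs set to their bound, whereas the median of the 203 features was -2.52. A further 19 X-linked features outside the stretch reached the minimum, with a median of -2.83. The log2 ratio of the members' summed reads was 7.52, a read ratio of 189 (112 to 317).

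**Figure D5:**
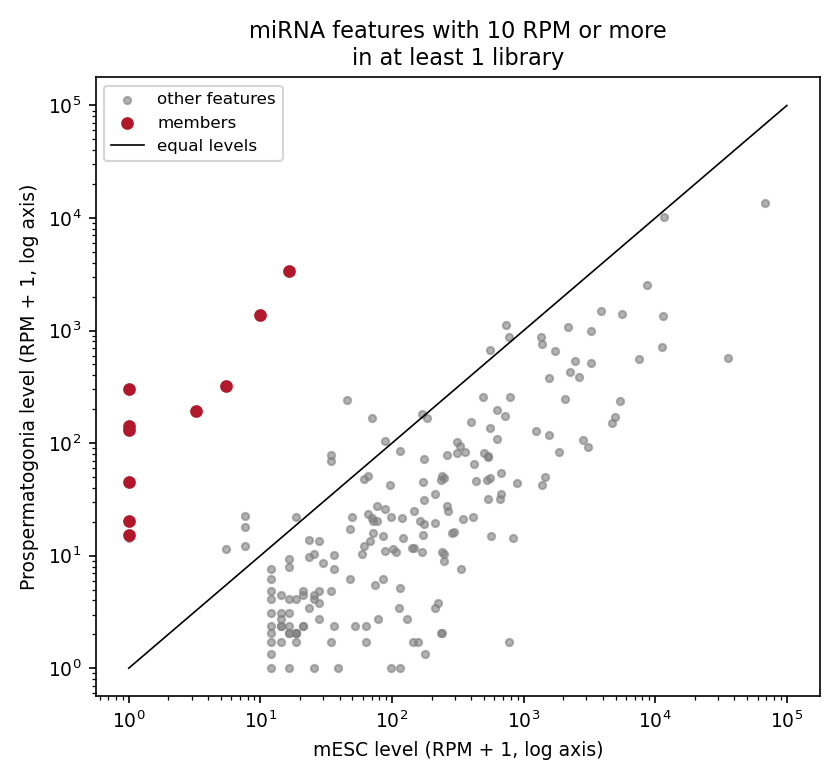
Level in prospermatogonia against level in mESCs (RPM + 1, log axes) for the 203 features that reached 10 RPM in a library, with the line of equal levels. The 10 members lie above the line, mmu-mir-743b.1 the highest of them, and most other features lie below it. Mir465, Mir471 and Mir202, with 0 reads in mESCs, lie behind points of members.

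Within mESCs, 7 of the 14 reads of the members were on mmu-mir-743b.1, 50% (26.8% to 73.2%), and 4 were on Mir470, 28.6% (11.7% to 54.7%). Both intervals include the share of that hairpin in prospermatogonia. The division of so few reads could not show any but large differences between the libraries.

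The unevenness was set beside that of other miRNA clusters of the table. In prospermatogonia the highest hairpin of the Mir290 cluster, Mir292, held 40.8% of the reads of its 7 hairpins (39.4% to 42.1%), and Mir92-1 held 97.2% of the reads of the 6 hairpins of the Mir17 cluster (97.0% to 97.4%). The 57.1% of mmu-mir-743b.1 lay between them, so that a single dominant hairpin was not particular to the X-linked cluster. Whether hairpins of the Mir290 and Mir17 clusters share mature sequences with others was not checked, and the treatment of multiple matches is not given.

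Markers of the cell types were looked up beside these results. The 12 hairpins of the Mir290 and Mir302 clusters, typical of pluripotent cells, all had more than 3 reads in mESCs and summed to 60659 RPM, against 1761 RPM and 6 of 12 in prospermatogonia, where Mir302b, Mir302c and Mir367 had 0 reads. Of the markers of other cells of the gonad, Mir202 had 0 reads in mESCs and 57 (19.9 RPM) in prospermatogonia, and Mir140 had 623 and 195 RPM. The 6 mesenchymal hairpins summed to 3205 RPM in mESCs, 3 of them with more than 3 reads, and to 91.3 RPM in the germ cells, where only Mir143 had more than 3 reads and Mir145, Mir199a-1, Mir199a-2 and Mir199b had none. The 4 blood hairpins summed to 890 and 43.6 RPM, and 1 of 4 had more than 3 reads in each library, with Mir144 and Mir223 at 0 in both. The endothelial Mir126 had 567 and 13.9 RPM. Mir202 was thus higher beside the members in prospermatogonia. Its level there was close to that of Mir743 (19.2 RPM), above Mir883b (14.3 RPM) and below each of the other members. The part of Mir202 in the result was not tested. Mir140 had a log2 ratio of -1.67, above the median of -2.52 of the 203 features with 10 RPM or more in a library. Of these features 80.8% were at least 2-fold lower in prospermatogonia. Mir143, Mir145, Mir214, Mir142 and Mir126 lay below that median. The part of Mir140 was not tested either. In these bulk libraries fewer cells of a type, less RNA per cell and a smaller share of miRNA reads cannot be told apart. That share was 24.6% of the reads in mESCs and 5.41% in prospermatogonia.

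The features outside the stretch with the most similar pattern were taken as the 3 with the largest log2 ratio over the 2 libraries among those with 10 RPM or more. Mir202 had a log2 ratio of 4.38, and at 0 reads in mESCs it was at least 2.98-fold higher in prospermatogonia, or 2.30-fold with the low end of its interval there. AC165361.1 had 20 and 686 reads, a log2 ratio of 2.40 and a read ratio between 3.46 and 8.35. Mir5097 had 3 and 62 reads, a log2 ratio of 1.56 and a read ratio between 1.08 and 9.75, with its count in mESCs at the limit of 3 reads.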

How the data were processed

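The smRNA-seq libraries were made by the authors with a TruSeq small RNA kit and cut from a gel by size. The submitters' processing notes name Trim Galore 0.4.1, Bowtie and GRCm38, whereas the paper's methods name piPipes and mm9. All 18 features of the stretch had GENCODE vM21 positions on GRCm38, the build used here. The authors deposited log2 values, taken as log2 RPM, the unit their supplement gives for RNA-seq. The quantitation, use of strand and treatment of multiple matches are not given in the sources used here. Library totals and RPM rest on this reading, shares of miRNA reads do not.

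Linear values were divided by the value of 1 read (2.22 RPM in mESCs, 0.348 RPM in prospermatogonia), with deviations from whole numbers of at most 0.0165 reads. The lowest value, 0.9 reads, was set to 0. Depth was 449643 and 2869578 reads, so that 3 reads are 6.67 and 1.05 RPM. No test was run, as each condition has 1 library. Ratios of reads have intervals from the Wilson interval of the split. Features with 10 RPM or more in a library entered counts at 2-fold. On simulated reads for 1638 features, 3276 of 3276 values were recovered. Zeros were entered there at the same 0.9 reads that the recovery assumes, so that this only checks the code. Changed features were given a change well past 2-fold with counting error alone. Of these, 134 of 134 above the minimum were called in the true direction, which says nothing of the spread between libraries.

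Mature and hairpin sequences (RefSeq, GRCm38.p6) were matched by position for 10 of 10 members. Identity was computed with Biopython 1.88 and energy with ViennaRNA 2.7.2. Tables were handled in Python 3.11.15 (pandas 2.3.3, numpy 2.4.6), intervals came from scipy 1.17.1 and plots from matplotlib 3.10.9. The members and lists were chosen with earlier results of these data known. The features named are the members, the other features of the stretch, the markers, the 3 features most like in pattern, and the highest hairpins of the Mir290 and Mir17 clusters, of which the latter were added after the values were seen. Alternatives were pseudocounts of 0.1 and 5 RPM, other scalings, filters, thresholds and denominators, and leaving out the highest members. Mir509 and Mir465d were not analysed here.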

Additional observations from a re-analysis of the deposited data

How the results depend on the processing

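No paired analysis was possible because mESCs and prospermatogonia are single libraries without a test, and for that reason no replicate could be left out either. All 10 members were at least 2-fold higher in prospermatogonia with pseudocounts of 0.1 and 5 RPM, both other scalings and no filter. With 1 RPM added, all 10 also passed a 4-fold threshold. Against the limit of 3 reads, however, Mir743 was at least 2.87-fold higher and Mir883b at least 2.14-fold, so 4-fold is not shown for them. When the interval of the read ratio had to pass 2-fold, 9 members remained, without Mir883b. The 40 log2 ratios of single members under the 4 pseudocounts and scalings lay between 1.95 and 11.6. Their direction could not change, since an equal pseudocount keeps the sign and both scalings raise every ratio. Nothing is read from it. Scaling to all miRNA reads or to the median ratio of 111 features moves each ratio up by 2.18 or 2.37 before the pseudocount by construction. For the summed reads the log2 ratio, 7.52, became 9.70 and 9.89, and the median of the members, 6.46, became 8.64 and 8.83, beside a background of 28.4% and 31.8% of features at least 2-fold higher in place of 9.85%. At pseudocounts of 0.1 and 5 RPM the median was 7.67 and 4.82, since 6 members are at 0 in mESCs. The share of the members in the miRNA reads of prospermatogonia, 10.9%, was 11.1% among features with a miRNA name, 4.66% without mmu-mir-743b.1 and 2.15% without Mir470 as well, and the sum then had log2 ratios of 7.25 and 7.24. The share of mmu-mir-743b.1, 57.1%, was 56.4% of the whole stretch and 56.5% in reads per nt, a setting chosen after seeing the data. With the reads of the crossed features assigned by name, also chosen after seeing the data, the share of the 5 upstream members was 39.2% in place of 94.1%, Spearman's rho of order and reads was -0.38 in place of -0.89, and that of energy and reads changed sign, from -0.16 to 0.20. Depth in mESCs, where 3 reads are 6.67 RPM, limits every bound.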
